A study of Rattus norvegicus with 547 samples.

Results

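Among 31042 probe sets measured on rat hepatocyte arrays, 131 were gained in culture. A probe set counted as gained when its mean over all solvent control arrays exceeded its mean over all arrays from the start of incubation (T0) by at least 1 on the log2 scale, a 2-fold difference. This difference is called the gain, and a probe set is a group of array probes read together as 1 value. The rule was met by 136 probe sets, and 5 of these were set aside by the rule itself, which left the 131 members described here. Members were thus chosen by their T0 and solvent control levels, and those values are given as a description with no test.

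The cells were hepatocytes of male Wistar rats, kept as sandwich cultures in 6-well dishes. They fell into 3 kinds of arrays. Treated arrays (257) came from cells incubated for 24 h with 1 of 29 compounds at a low, middle or high concentration. Solvent control arrays (256) came from the other wells of the same dishes after 24 h with solvent only, and the 34 T0 arrays from cells that received neither solvent nor compound and were collected the morning after isolation, when incubation began. The submitters classed 9 compounds as genotoxic (GT), 11 as non-genotoxic (NG) and 9 as non-carcinogens (NC). Of dehydroepiandrosterone (DEHA) only the low and middle levels were analysed here, so its middle level stands as its highest. Per the series' design text, the 3 replicates of a compound were different rats on different days. The labels do not say which rats gave the T0 arrays or whether compounds shared rats.

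Isolated hepatocytes are known to adjust to culture by losing part of their liver-specific expression while raising genes of stress, the cytoskeleton and attachment. Sandwiching the cells between layers of matrix is used to slow this drift. The level after 24 h with solvent is thus the state to which a compound's effect is compared. A member can be pushed further from T0, which gives a positive treated minus control difference, or back toward T0, which gives a negative one. Probe sets were not matched to genes here, so each member is given by its probe set ID, and no gene name, pathway or cell type marker is attached to it. For the same reason the hepatocyte label was not checked against marker genes.

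Several arrays stood apart. The labels name no batch, but 145 arrays (67 treated, 67 control and 11 T0) had array medians under 5.4 on the log2 scale, where all medians ran from 5.24 to 5.76. This limit was set after the data were seen, and the 145 are called the low-median arrays here. The arrays of acetaminophen (Aap) high treated replicate 1 and of DEHA middle control replicate 1 had median correlations with the other arrays of 0.306 and 0.842. A further 16 arrays lacked the signal of the spike-in control probe sets, among them methylendianiline (MDA) high treated replicates 1 and 3 and all 3 controls of 2-acetylaminofluorene (2AAF) low. Where a result rests on such arrays this is said beside it. For 2AAF low and middle no value without them could be given, since every dish holds one.

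Within the chosen set the gain was mostly modest. It had a median of 1.19 and a mean of 1.28, with 21 members at 1.5 or more and 4 of these at 2 or more. The largest gain belonged to 1371367_at, with 2.42, followed by 1367661_at, with 2.20. The control arrays of 1371367_at had a lowest value of 5.78, a median of 9.49 and a highest of 11.30, against 5.58, 7.15 and 8.29 on the T0 arrays, and 250 of the 256 control arrays lay above the highest T0 array. For 1367661_at the control arrays had 6.10, 9.0 and 10.12, against 5.62, 6.81 and 7.57 on T0 arrays, and 243 control arrays lay above all T0 arrays. At the threshold, 1370583_s_at (1.0020) and 1368365_at (1.0025) were just inside, and 1367777_at (0.9946) and 1398240_at (0.9935) just outside.

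The groups were shifted against each other but not separated in full. No member (0 of 131) had control and T0 arrays that did not overlap, while 113 had at least 50% of their control arrays above the highest T0 array and 44 had at least 90%. Averaged over the 131 members, the lowest, median and highest array levels were 5.79, 8.63 and 9.34 among treated arrays, 7.36, 8.65 and 9.40 among solvent controls and 6.74, 7.44 and 7.97 among T0 arrays. The member mean differed between the low-median arrays and the others. Among the low-median arrays the median was at 9.19 when treated, 9.19 in solvent control and 7.78 at T0, and among the others 8.54, 8.59 and 7.33. The mean gain was 1.35 among the low-median arrays and 1.29 among the others, and all 131 members had a gain above 0 in each, 93 of them 1 or more in both. With each array set against the T0 arrays of its own kind, only 1 treated array (Aap high replicate 1) and 1 control array (DEHA middle replicate 1) lay at or below the highest T0 array, and these are the 2 arrays with low correlations. Return to the T0 level of the whole set was thus not seen in other treated arrays, and movement was a matter of part of the gain or of single members.

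**Figure D1:**
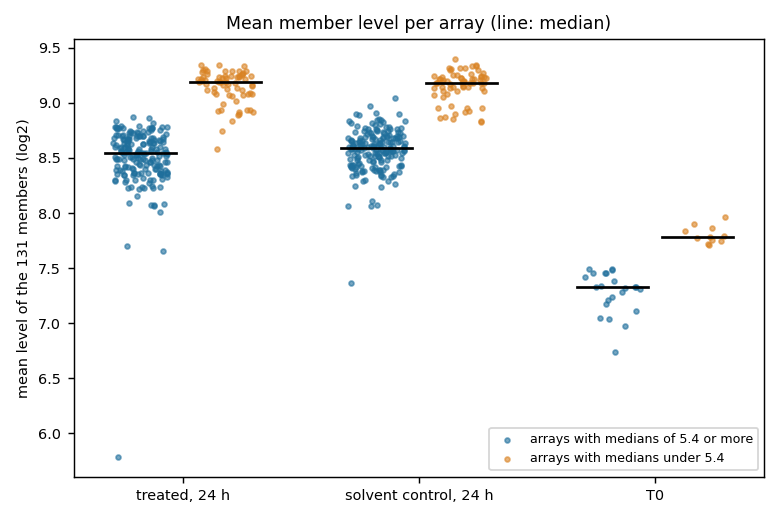
Mean log2 level of the 131 members on each array (points), for treated, solvent control and T0 arrays, split at an array median of 5.4, with the median as a line. Treated and control arrays had medians of 8.63 and 8.65 over both kinds, and T0 arrays 7.44.

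The T0 and control arrays that chose the members also describe their level and spread, with no test. Members were brighter than most probe sets at T0, where the median member had 7.16 and the median of all probe sets was 5.46, at a median percentile of 78.5. They also varied more between solvent control arrays, with a median SD of 0.50, against 0.29 for all probe sets, at a median percentile of 89.5. A feature that the rule did not use is the ID itself. In 13 members (9.92%, against 4.9% of all probe sets) the ID carries a letter (a, s or x) that the array's maker used for probes that match several transcripts. Whether level, variability or such probes account for the share of members called in the tests was not tested. The members did not form 1 tightly moving block. Over 87 control values, each the mean of 1 compound and replicate number, the median pairwise correlation of members was 0.477. Over the 69 such values from arrays other than the low-median ones it was 0.199, against 0.047 for all probe sets. These correlations across samples share the arrays and their normalization and are a description only.

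The main comparison asked how each compound and level moved the members relative to the solvent control of the same dish. Each treated minus control difference was tested with limma over all 31042 probe sets, and a probe set is called when its Benjamini-Hochberg adjusted p is under 0.05. These differences use the same control arrays that entered the gain, 3 at a time. At the highest level of each compound, members were lower in 540 of 3799 pairs of member and compound, or 14.2% where 3.15% of all probe set pairs were lower. They were higher in 252 pairs, or 6.63%, where 2.71% of all were higher. Without MDA and N-nitrosomorpholine (NNM), which are affected by unusual arrays, the numbers were 383 lower (10.8%, all probe sets 2.23%) and 243 higher (6.87%, all probe sets 1.74%). Members were thus called in both directions more often than probe sets at large, and the excess was larger for falls. The counts were spread over many compounds, with falls in 21 and rises in 20 of the 29, and 14 compounds called at least 20 members in either direction.

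**Figure D2:**
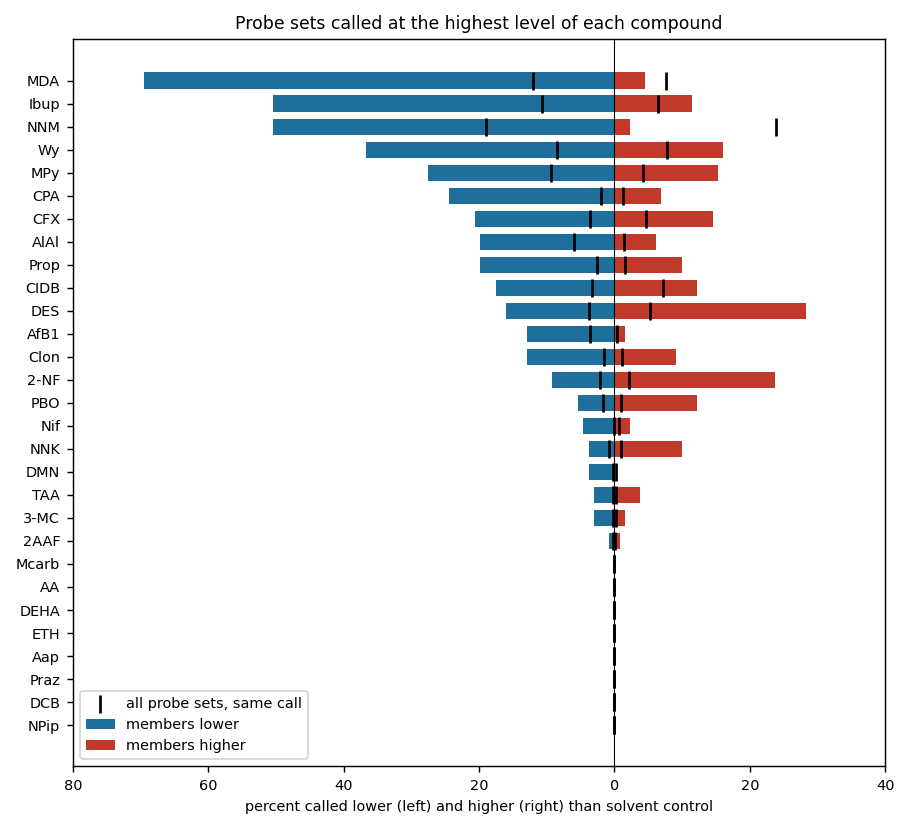
Percent of the 131 members called lower (blue, to the left) and higher (red, to the right) than solvent control at each compound's highest level, with black ticks for the same calls over all probe sets (limma, adjusted p under 0.05). MDA (69.5% lower), ibuprofen (50.4%) and NNM (50.4%) had the largest shares of falls, and DES (28.2%) and 2-NF (23.7%) the largest shares of rises.

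Members were called for at least 1 compound more often than probe sets at large. At the highest level, 127 of the 131 were called lower for at least 1 compound (96.9%, all probe sets 34.1%), 94 were called higher for at least 1 (71.8%, all 50.2%), and 90 were called in both directions depending on the compound (68.7%, all 14.8%). Without MDA and NNM, 107 were called lower (81.7%, all 25.1%) and 92 higher (70.2%, all 27.3%). A further 37 were only ever called lower, 4 were only called higher, and 0 were never called (all probe sets 30.6%), against 5 without MDA and NNM (3.82%, all 56.4%). Falls were called in more compounds than rises for 83 members and in fewer for 31, and the median member was lower for 3 compounds and higher for 1.

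The number of calls grew with concentration. At the low level members were lower in 58 pairs (1.53%, all probe sets 0.716%) and higher in 87 (2.29%, all 0.726%). Leaving out 2AAF low, whose controls lacked spike-in signal, left 44 in each direction (1.20%), against 0.108% lower and 0.25% higher for all probe sets. At the middle level of the 28 compounds other than DEHA there were 179 falls (4.88%, all 0.546%) and 78 rises (2.13%, all 0.286%). Tested directly as high minus low within compounds, 287 pairs were lower at the high level (7.82%, all 1.45%) and 74 were higher (2.02%, all 1.02%). Of the 287 falls, NNM gave 34, MDA 34 and 2AAF 25, compounds with the unusual arrays described above, while Wy-14643 gave 46 and ibuprofen 41. As high minus middle, 152 were lower (4.14%, all 0.746%) and 32 higher (0.872%, all 0.49%). NNM gave 48 and MDA 10 of the 152 falls, while ibuprofen gave 30 and Wy-14643 25. Neither contrast was pooled again without the compounds with unusual arrays. The mean over members was farthest from 0 at the high level in 15 of 28 compounds, at the middle level in 5 and at the low level in 8, so the shift of the set as a whole did not follow concentration in every compound.

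**Figure D3:**
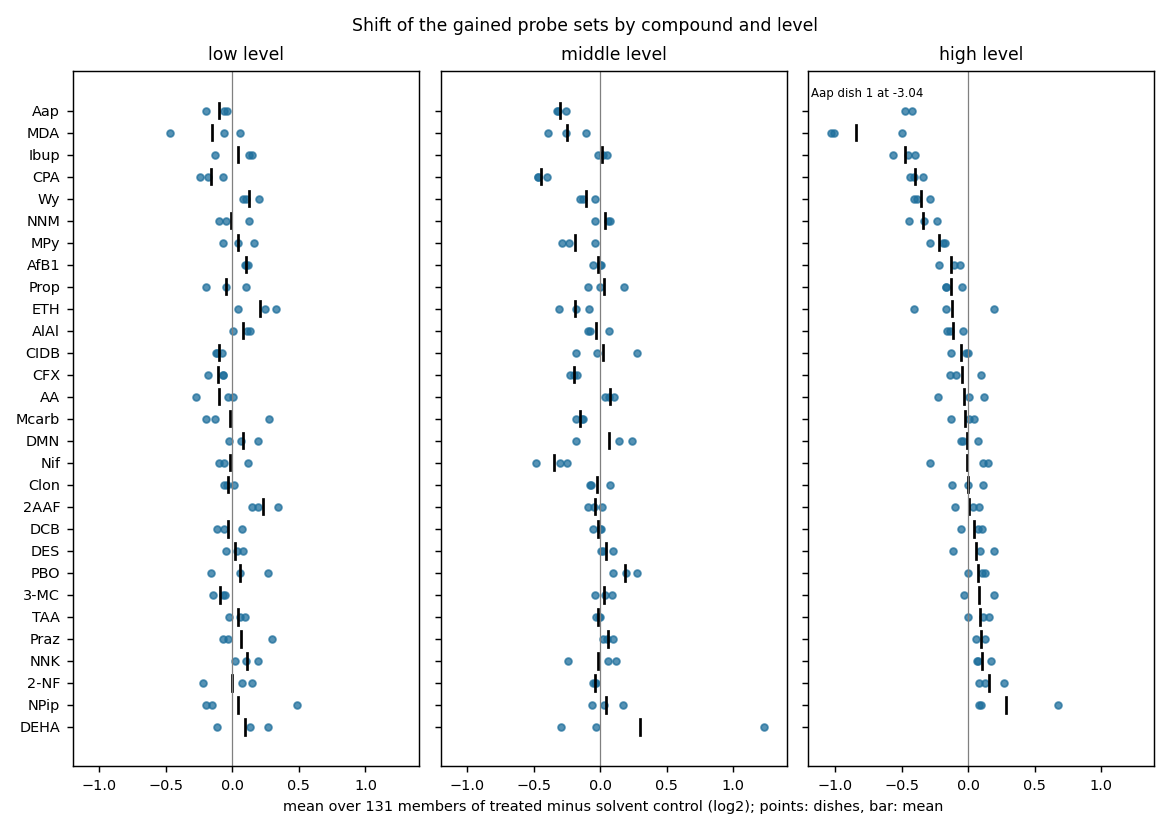
Mean over the 131 members of treated minus solvent control (log2) for each dish (points) and its mean over dishes (bar), by compound and level, with compounds ordered by the shift at their highest level. Negative values point toward T0. MDA, ibuprofen, CPA, Wy and NNM lie below 0 in every dish of the high level, and 1 Aap dish at -3.04 lies outside the axis.

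Cyproterone acetate (CPA), a synthetic steroid with antiandrogen and progestin activity, moved the set back with little spread between rats. At the middle level (33 µM) the 3 dishes had mean member differences of -0.40, -0.47 and -0.47, a mean of -0.45 ± 0.04 (SD, n = 3), which is -34.9% ± 2.9 (SD) of the mean gain. At this level 43 members fell (all probe sets 2.61%) and 10 rose (all 0.892%), and the median member was at -0.33 where the median of all probe sets was 0.01. At the high level (100 µM) 32 fell (all 1.91%) and 9 rose (all 1.34%), with a mean of -0.40 ± 0.05, and at the low level (1.11 µM) 15 fell (all 0.87%) and 8 rose (all 2.24%), with -0.16 ± 0.09. The low dishes were low-median arrays, with a control member mean of 9.23, against 8.59 at the middle and 8.66 at the high level. Between the low level and the others, concentration and array kind thus cannot be told apart. In 16 of the 43 falls at the middle level, and 15 of the 32 at the high level, the fall was larger than the member's own gain, so that by this measure these members passed the T0 level.

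The largest fall under CPA was in 1387154_at. At the middle level its treated arrays had 7.77, 7.63 and 7.51, against 11.97, 12.02 and 11.37 in solvent control, a log2 difference of -4.15 ± 0.14 (SE, limma adjusted p 1.64e-07). The treated arrays lay below its T0 mean of 10.43 ± 0.88 (SD, n = 34). Next was 1370310_at, with 6.92, 7.74 and 6.77 in treated arrays, against 10.86, 10.58 and 11.25 in control, a difference of -3.75 ± 0.24 (SE, adjusted p 6.08e-06). In the other direction, 1370698_at had 10.83, 9.71 and 10.77 when treated, against 7.57, 7.41 and 7.82 in control, and was higher by 2.84 ± 0.41 (SE, adjusted p 0.00256). The groups did not overlap in any of these 3 members, so the same dose lowered some members past T0 and pushed others further from it. A second riser, 1368491_at, had 10.36, 9.91 and 10.37 in treated arrays, against 8.80, 8.59 and 7.87 in control (1.79 ± 0.19, SE, adjusted p 2.92e-04).

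Wy-14643 (Wy), an agonist of the nuclear receptor PPAR alpha, changed the direction of the set with dose. At the low level (60.05 µM) the dishes had mean differences of 0.08, 0.10 and 0.20, at the middle level (180.14 µM) -0.15, -0.13 and -0.04, and at the high level (540.43 µM) -0.29, -0.40 and -0.38. All dishes were above 0 at the low level and below 0 at the other levels. Members called lower numbered 10 (all probe sets 0.921%), 14 (all 2.11%) and 48 (all 8.51%) from low to high, and members called higher 16 (all 1.18%), 10 (all 0.606%) and 21 (all 7.82%). Tested as high minus low, 46 members were lower at the high level (all 5.93%) and 14 were higher (all 4.01%). Among the 21 members with a gain of 1.5 or more the mean at the low level was -0.17, so the upward shift there did not hold for the most gained members, and at the high level it was -0.79 where the whole set had -0.36.

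The member 1370310_at also changed sign with dose, but between the middle and the high level. Its treated arrays had 12.98, 12.92 and 12.91 at the low level of Wy, against 11.06, 11.49 and 11.28 in control (1.66 ± 0.13, SE, adjusted p 3.86e-05). The middle level gave 12.28, 12.41 and 12.26, against 11.14, 11.27 and 11.38 (1.05 ± 0.13, SE, adjusted p 8.65e-04). The high level gave 9.58, 7.61 and 7.94, against 12.89, 11.55 and 11.46 (-3.59 ± 0.13, SE, adjusted p 1.37e-08). Treated and control arrays did not overlap at any level. By contrast 1367661_at fell at every level, by -1.27, -2.16 and -3.35 from low to high, and at the high level its treated arrays had 6.41, 6.22 and 5.71, against 9.35, 9.48 and 9.57 in control (SE 0.19, adjusted p 3.06e-07), around and below its T0 mean of 6.67 ± 0.55. Among members pushed further by high Wy was 1379606_at, with 11.26, 10.32 and 10.32 in treated arrays, against 9.70, 8.23 and 8.25 in control (1.91 ± 0.15, SE, adjusted p 4.42e-06). Replicate 1 was the highest array of 1379606_at in both groups.

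Ibuprofen (Ibup), a non-steroidal anti-inflammatory drug in the non-carcinogen class, moved the set mean at its high level and left it near 0 at the lower ones. Its dishes were all low-median arrays, where the mean gain was 1.35, while the percent below uses the gain over both kinds. At 920 µM the dishes had mean differences of -0.57, -0.40 and -0.46 (-0.47 ± 0.09, SD, n = 3, or -37.1% ± 6.8 of the mean gain). There, 66 members fell (all probe sets 10.7%) and 15 rose (all 6.42%), and 19 of the falls exceeded the member's gain. At the low level (102 µM) and the middle level (306.67 µM) 8 members fell and 11 rose each, where 0.209% and 0.519% of all probe sets fell and 0.409% and 1.36% rose, and the set mean was 0.05 ± 0.16 and 0.02 ± 0.03. Tested as high minus low, 41 members were lower at the high level (all 2.71%) and 5 were higher (all 1.37%).

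At high ibuprofen, 1389654_at had 4.67, 5.31 and 5.95 in treated arrays, against 7.76, 7.82 and 7.88 in control (-2.51 ± 0.24, SE, adjusted p 1.01e-04). Its T0 mean was 5.67 ± 0.37, so the treated arrays lay on both sides of the T0 level. The member 1392579_at, not the second in size but called with a smaller error, had 7.49, 7.94 and 7.82 in treated arrays, against 10.12, 9.86 and 10.04 in control (-2.26 ± 0.15, SE, adjusted p 1.24e-05), where the T0 mean was 7.54 ± 0.58. Both were thus near their T0 means over both kinds of arrays. Their gains were 1.99 and 2.23 among the low-median arrays, to which the ibuprofen arrays belong, and 1.37 and 1.905 among the others. The T0 levels of low-median arrays alone were not set beside them. Pushed further were 1387643_at, with 10.25, 10.28 and 10.28 when treated, against 8.24, 8.53 and 8.21 in control (1.94 ± 0.13, SE, adjusted p 1.2e-05), and 1379606_at, with 11.81, 11.84 and 11.94, against 10.13, 10.03 and 10.23 (1.73 ± 0.13, SE, adjusted p 2.27e-05). Both were also among the largest rises at high Wy, where 1387643_at had a difference of 1.5.

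Methapyrilene (MPy), an antihistamine known to cause liver tumours in rats, lowered the set at its 2 upper levels. At the high level (44.39 µM) 36 members fell (all probe sets 9.30%) and 20 rose (all 4.27%), with a set mean of -0.22 ± 0.06 (SD, n = 3), and at the middle level (14.78 µM) 27 fell (all 3.63%) and 13 rose (all 1.82%), with -0.19 ± 0.13. The fall of 1370310_at was the largest at the high level, with 8.59, 8.44 and 8.73 in treated arrays, against 11.12, 11.29 and 11.35 in control (-2.67 ± 0.12, SE, adjusted p 6.34e-08). It was followed by 1374976_a_at, with 4.94, 4.61 and 5.0, against 6.94, 7.06 and 7.16 (-2.20 ± 0.13, SE, adjusted p 5.8e-07). Both fell below their T0 means of 9.67 and 5.30. A rise of 1382882_x_at was uneven, with 4.08, 6.37 and 6.62 in treated arrays, against 3.71, 3.77 and 3.54 in control (2.02 ± 0.35, SE, adjusted p 0.00209), and 1379606_at rose by 1.58 ± 0.15 (SE, adjusted p 2.46e-05). The T0 mean of 1382882_x_at, 2.82, was the lowest of the members, near the lowest value of all arrays, 2.00. Its SD over all control arrays, 1.34, was the largest of the members.

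MDA, an aromatic diamine of the genotoxic class, had the largest number of members called, but 2 of its 3 high dishes (9.81 µM) included a treated array without spike-in signal. In all dishes together 91 members fell (all probe sets 12%) and 6 rose (all 7.67%), with a set mean of -0.85 ± 0.30 (SD, n = 3), and 31 of the falls exceeded the member's gain. The dishes with spike-in loss, replicates 1 and 3, had means of -1.03 and -1.01, and the remaining dish had -0.50. With that dish alone at the high level, where the other levels supply the spread, 11.5% of members were called lower, and fewer dishes in themselves also give fewer calls. The treated minus control difference of the array median was 0.15 and 0.13 in the 2 dishes and -0.01 in the third, and with this difference as a term in the fit 36.6% of members were called lower. The part of these array differences in the result was otherwise not tested.

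Single members at high MDA differed in how evenly the dishes behaved. In 1370310_at all dishes were alike, with 8.12, 8.19 and 7.99 in treated arrays, against 10.56, 10.75 and 10.57 in control (-2.53 ± 0.13, SE, adjusted p 9.12e-07). For 1379818_at the treated arrays had 5.94, 6.00 and 5.07, against 8.04, 8.26 and 8.15 (-2.49 ± 0.24, SE, adjusted p 1.02e-04). The largest rise was in 1382882_x_at, with 7.79, 9.66 and 7.66 in treated arrays, against 4.45, 4.96 and 5.05 in control (3.55 ± 0.37, SE, adjusted p 1.33e-04), and replicate 2, the dish with spike-in signal, was the highest. This is the member with the lowest T0 mean (2.82) and the largest SD over control arrays (1.34). The member 1387154_at, which CPA lowered most, was higher under MDA, with 13.01, 13.10 and 12.95, against 11.77, 12.15 and 11.77 (1.12 ± 0.14, SE, adjusted p 4.40e-04). Groups did not overlap in these 4 members.

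NNM, a cyclic nitrosamine, gave 66 falls (all probe sets 18.9%) and 3 rises (all 23.9%) at its high level (152.33 µM), with a set mean of -0.34 ± 0.11 (SD, n = 3). In 2 of the 3 dishes only 1 of the 2 arrays was a low-median array. With the remaining dish alone, where the other levels supply the spread and fewer dishes in themselves give fewer calls, 1.53% of members were called lower. With all dishes and the array median difference as a term, 0% were. The part of the array medians in the count was not tested further. The remaining dish had a set mean of -0.23. The largest fall, in 1371076_at, was similar in all dishes, with 6.96, 6.81 and 6.93 in treated arrays, against 8.66, 8.89 and 8.75 in control (-1.87 ± 0.13, SE, adjusted p 1.13e-05), which is near its T0 mean of 6.84 ± 0.52. The largest rise was small, in 1373241_at, with 8.77, 8.91 and 8.71, against 8.41, 8.35 and 8.46 (0.39 ± 0.09, SE, adjusted p 0.00662).

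Acetaminophen, an analgesic that injures the liver at high doses, had set means below 0 in every dish at its high and middle levels, while limma with all dishes called 0 members at either (all probe sets 0.00322% and 0%). At an unadjusted p under 0.05 it had 72 members at the high level (55.0%, all probe sets 25.4%) and 13 at the middle one (9.92%, all 1.20%). At the high level (1000 µM) the dishes had -3.04, -0.47 and -0.42, and the first holds the array with the low correlation. Without it the set mean was -0.45, and limma called 32 members lower (all probe sets 2.42%) and 1 higher (all 0.635%). The middle level (333 µM) had dishes at -0.32, -0.32 and -0.26, and 1 member was called lower without the distant array (all 0.0612%). The arrays of 1371367_at illustrate the spread, with 5.01, 8.74 and 8.33 in treated arrays of the high level, against 9.91, 9.92 and 9.66 in control (-2.47 ± 0.67, SE, adjusted p 0.155).

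Nifedipine (Nif), a calcium channel blocker, moved the set at its middle level more than at its high level. Of the members, 32 fell at the middle level of 200 µM (all probe sets 0.944%) and 5 rose (all 0.673%), with dish means of -0.30, -0.48 and -0.25. At the high level 6 fell (all 0.126%) and 3 rose (all 0.67%), with dish means of 0.15, 0.11 and -0.28. The direction of the high level thus differed between dishes in the deposited values. With quantile normalization all 3 dishes were below 0, at -0.08, -0.08 and -0.26, with a mean of -0.14, against -0.36 at the middle level. Cefuroxime (CFX), a cephalosporin antibiotic, had the same order for the set mean, with -0.20 ± 0.03 at the middle level, where 21 members fell (all 1.30%) and 2 rose (all 0.499%), and -0.04 ± 0.12 at the high level, where 27 fell (all 3.59%) and 19 rose (all 4.69%).

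Rises outnumbered falls for a few compounds. Diethylstilbestrol (DES), a synthetic oestrogen, raised 37 members (all probe sets 5.26%) and lowered 21 (all 3.76%) at its high level (12.15 µM), but its set mean was 0.06 ± 0.16 (SD, n = 3), with dishes at -0.11, 0.20 and 0.09. Among the 21 members with a gain of 1.5 or more its mean was -0.29, so the most gained members went the other way. Without replicate 2 only 3.82% of members were called higher, against 28.2% with all dishes. The largest fall, in 1371011_at, had 6.11, 6.13 and 5.64 in treated arrays, against 7.77, 7.76 and 7.59 in control (-1.75 ± 0.14, SE, adjusted p 4.54e-06), and 1387228_at had 9.88, 10.02 and 10.09, against 11.46, 11.51 and 11.45 (-1.48 ± 0.11, SE, adjusted p 2.24e-06). Both stayed above their T0 means of 5.0 and 9.32. The largest rise, in 1368489_at, had 9.03, 9.28 and 9.10, against 8.06, 7.96 and 8.01 (1.13 ± 0.12, SE, adjusted p 6.98e-05).

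2-Nitrofluorene (2-NF), a nitrated polycyclic compound, raised 31 members (all probe sets 2.14%) and lowered 12 (all 2.19%) at its high level, with dish means of 0.08, 0.27 and 0.13. Piperonyl butoxide (PBO), a pesticide synergist, raised 16 (all 0.992%) and lowered 7 (all 1.68%) at its high level, and at its middle level raised 12 (all 0.358%) and lowered 2 (all 0.0644%). Its set mean was 0.08 ± 0.07 at the high level, but -0.13 over the members with a gain of 1.5 or more. The tobacco nitrosamine NNK raised 13 (all 1.05%) and lowered 5 (all 0.838%) at its high level, with all dishes above 0. For 2AAF low (0.11 µM), an aromatic amide at its lowest concentration, 43 members rose (all 14%) and 14 fell (all 17.7%), but all 3 control arrays lacked spike-in signal, and with the array median difference as a term 0% were called higher. Its middle level, where all 3 treated arrays lacked that signal, gave 0 rises and 4 falls (all 0.219% and 0.667%).

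Further compounds had small shifts of the set mean, with members called in both directions but few rises for aflatoxin B1 and 0 for dimethylnitrosamine. Propranolol (Prop), a beta blocker, lowered 26 (all probe sets 2.52%) and raised 13 (all 1.53%) at its high level, with a set mean of -0.13 ± 0.07. Allyl alcohol (AlAl) lowered 26 (all 5.90%) and raised 8 (all 1.46%), with -0.11 ± 0.06. C.I. Direct Black (CIDB), an azo dye, lowered 23 (all 3.35%) and raised 16 (all 7.23%), with -0.05 ± 0.07. Clonidine (Clon), an alpha-2 agonist, lowered 17 (all 1.59%) and raised 12 (all 1.08%), with -0.0024 ± 0.12. Thioacetamide lowered 4 (all 0.184%) and raised 5 (all 0.235%), with 0.09 ± 0.08, and at its middle level lowered 11 (all 1.1%) and raised 6 (all 0.583%). Dimethylnitrosamine lowered 5 (all 0.139%) and raised 0 (all 0.19%), with -0.0079 ± 0.07. 3-Methylcholanthrene lowered 4 (all 0.164%) and raised 2 (all 0.226%), with 0.08 ± 0.16 (2 dishes). 2AAF high lowered 1 (all 0.18%) and raised 1 (all 0.106%), with 0.0073 ± 0.09. Aflatoxin B1 (AfB1), a mould toxin, lowered 17 (all 3.67%) and raised 2 (all 0.361%), with -0.13 ± 0.08, and 0 of its falls exceeded even 50% of the member's gain. With quantile normalization the set mean was -0.01 for allyl alcohol, -0.05 for AfB1 and -0.08 for propranolol, nearer to 0 than the deposited values. It was -0.13 for CIDB, farther from 0, and -0.009 for clonidine.

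At the highest level limma called 0 members for N-nitrosopiperidine (NPip), methylcarbamate (Mcarb), acetamide (AA), ethionine (ETH), 1,4-dichlorobenzene (DCB), DEHA or prazosin (Praz). Over all probe sets the share called in either direction was 0% for the first 6 and 0.0322% for prazosin. At an unadjusted p under 0.05 NPip had 31 members (23.7%, all probe sets 11.5%), ethionine 31 (23.7%, all 8.88%), DEHA 33 (25.2%, all 7.61%) and methylcarbamate 18 (13.7%, all 5.18%). Prazosin had 7 (5.34%, all 3.41%), and acetamide with 8 (6.11%, all 5.78%) and DCB with 7 (5.34%, all 4.70%) were near the share of all probe sets. The set means of NPip (0.28 ± 0.34, SD, n = 3) and ethionine (-0.12 ± 0.30) had wide spreads between dishes, and 1 NPip control array, replicate 2, lacked spike-in signal. Without that dish the NPip mean was 0.091. In 1 of the 3 ethionine dishes only 1 of the 2 arrays was a low-median array. At high methylcarbamate all 3 control and 2 of the treated arrays lacked this signal, and without the dish whose arrays differed the set mean was -0.045, against -0.027 with it. For DEHA middle the dish with the distant control array had a set mean of 1.23, the others -0.04 and -0.30, and without that dish the mean was -0.17.

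The member called lower in the most compounds was 1368272_at, which fell in 16 and rose in 1 at the highest level. Its control arrays ranged from 6.18 to 11.81 with a median of 10.69, and its T0 arrays from 8.54 to 10.09 with a median of 9.54. At high CPA its treated arrays had 8.21, 8.71 and 7.44, against 10.46, 10.63 and 10.38 in control (-2.37 ± 0.17, SE, adjusted p 1.78e-05). With 3-methylcholanthrene (3-MC), an aryl hydrocarbon receptor agonist, it fell at every level, by -1.40, -1.50 and -2.02 from low to high (adjusted p 0.00588, 0.00272 and 0.00124, the last with 2 dishes). With ibuprofen the differences were -1.09, -1.05 and -1.86 (adjusted p 0.00292, 0.00417 and 2.27e-05). The compound that raised it was MDA, by 0.73 at the high level, where 2 of the 3 treated arrays lacked spike-in signal. Nifedipine at the middle level raised it by 1.0.

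The second was 1370310_at, which fell in 15 compounds and rose in 2 at the highest level, with a mean difference over the 29 compounds of -0.94. Its largest falls came with CPA, Wy, methapyrilene and MDA, as given above, and with propranolol (-2.15) and clonidine (-1.89). It rose at every level of ibuprofen, with 12.44, 12.34 and 12.36 in treated arrays of the low level, against 10.66, 10.60 and 11.16 in control (1.58 ± 0.15, SE, adjusted p 3.41e-04), by 1.14 at the middle level and by 0.59 at the high level. Ibuprofen at its low and middle levels and Wy at its low and middle levels thus shared the sign of this member, while their high levels did not. That difference between the compounds was not tested.

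The member called higher in the most compounds, 1370269_at, was the most changeable of the set. It rose in 9 compounds and fell in 6 at the highest level. With 3-MC the treated arrays had 13.64, 13.66 and 13.66 at the low level (0.64 µM), against 9.11, 8.82 and 8.95 in control (4.69 ± 0.15, SE, adjusted p 1.46e-07). The middle level (1.92 µM) gave 4.66 and the high level (5.76 µM, 2 dishes) 4.76. The treated arrays of all 3 levels lay close together, with 13.67, 13.75 and 13.62 at the middle and 13.65 and 13.59 at the high level, near the top of the table at 14.6. Whether the signal was near saturation there, which would hide an order between levels, was not tested. With piperonyl butoxide it climbed with concentration, by 0.04 at the low level (adjusted p 0.997), 2.09 at the middle level (adjusted p 1.81e-06) and 4.50 at the high level, where treated arrays had 13.63, 13.64 and 13.75, against 9.16, 9.17 and 9.20 in control (SE 0.11, adjusted p 6.7e-10). With clonidine it fell, by -0.21 (adjusted p 0.683), -1.60 (adjusted p 0.00737) and -3.40 (adjusted p 4.72e-05) from low to high, and at the high level its treated arrays had 5.87, 5.37 and 5.74, against 9.0, 9.39 and 8.79 in control, below the lowest T0 array at 6.57.

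The response of 1370269_at to CPA changed sign between levels. Its difference was 1.28 at the low level (adjusted p 0.00284), -0.98 at the middle level (adjusted p 0.00894) and 1.91 at the high level (adjusted p 8.94e-05). The low level of CPA was on low-median arrays and the other levels were not, so the change from low to middle also crosses array kinds. Middle treated arrays had 7.21, 7.64 and 6.97, against 8.60, 8.34 and 7.82 in control, and high treated arrays had 9.87, 9.94 and 9.84, against 7.73, 8.14 and 8.04. The control arrays of the middle and high levels overlapped, and the treated arrays did not. The gain of this member also differed between arrays, with 0.57 among the low-median arrays and 1.60 among the others.

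Next in order of rises were 1376973_at and 1379854_at, each higher in 8 compounds and lower in 2. The first, with the larger mean size of change (0.48, against 0.44), is described. The largest rise of 1376973_at was at high CPA, with 10.06, 10.01 and 10.96 in treated arrays, against 8.30, 8.49 and 8.63 in control (1.87 ± 0.20, SE, adjusted p 3.18e-04), followed by clonidine (1.17) and allyl alcohol (1.0). It fell by 0.77 at high ibuprofen.

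Among the 21 members with a gain of 1.5 or more, 18 of 111 falls called at the highest level were larger than the gain (16.2%), and 9 of the 21 members had at least 1 such fall. Over all members it was 119 of 540 (22%), in 58 of the 131. MDA high gave 31 of the 119 and NNM high 3, the compounds affected by unusual arrays. The member 1371367_at was lower in 5 compounds and higher in 1 at the highest level. High MDA gave 8.48, 8.35 and 7.60 in treated arrays, against 10.28, 9.21 and 9.37 in control (-1.47 ± 0.20, SE, adjusted p 6.71e-04), and high CPA 8.95, 8.13 and 8.56, against 9.78, 9.87 and 9.93 (-1.31 ± 0.20, SE, adjusted p 0.00422). Replicates 1 and 3 of these MDA treated arrays lacked spike-in signal. Both falls of 1371367_at were smaller than its gain of 2.42. Cefuroxime raised it by 0.88 at the high level (adjusted p 0.011), where 2 control arrays, at 8.61 and 8.64, were lower than the third at 9.64. The member 1367661_at was lower in 10 compounds and higher in 2, and besides Wy it fell at every level of CPA (-1.62, -1.95 and -2.0 from low to high) and of ibuprofen (-1.02, -1.09 and -0.59).

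**Figure D4:**
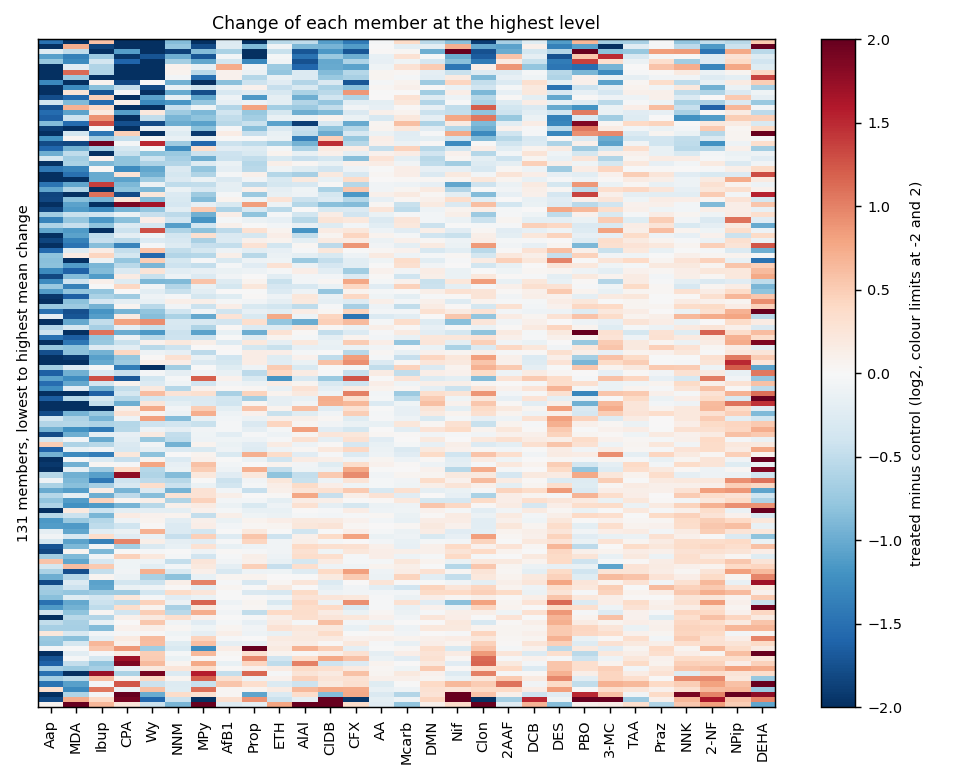
Treated minus control difference (log2) of each of the 131 members (rows, from the lowest mean change at the top to the highest at the bottom) at the highest level of each compound (columns, ordered by set mean), with colours limited at -2 and 2. Blue cells are lower than solvent control and red cells higher. Falls of the upper rows are shared by many compounds, and single cells of the opposite colour stand in nearly every column with calls.

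Movement back toward T0 in the gained members was set beside the 409 probe sets with the opposite culture change, a gain of -1 or less, called lost here. A return of both kinds would lower the gained and raise the lost. The gained were below 0 and the lost above 0 in every dish in 3 of the 86 comparisons, MDA middle, CPA low and ibuprofen high. At MDA middle the lost mean was close to 0, at 0.01 ± 0.01 (SD, n = 3), and 0 gained and 0 lost probe sets were called (all 0%). At CPA low it was 0.17 ± 0.08, with 44 lost probe sets called higher (10.8%, all 2.24%) and 14 lower (3.42%, all 0.87%). Both were below 0 in every dish in 14 comparisons, among them Wy high and middle, CPA middle, NNM high, propranolol high, allyl alcohol high and AfB1 high. These signs are of the deposited values, and with quantile normalization the gained mean of allyl alcohol high was -0.01. The gained were above and the lost below in 3, and both were above in 4. At high ibuprofen the lost probe sets had a mean of 0.34 ± 0.25 (SD, n = 3), with 168 called higher (41.1% of the lost, all probe sets 6.42%) and 42 lower (10.3%, all 10.7%). At high Wy it was -0.47 ± 0.12, with 39 higher (9.54%, all 7.82%) and 179 lower (43.8%, all 8.51%). The signs of the 2 sets were both fixed from the same T0 and control arrays, so their joint pattern is a description.

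**Figure D5:**
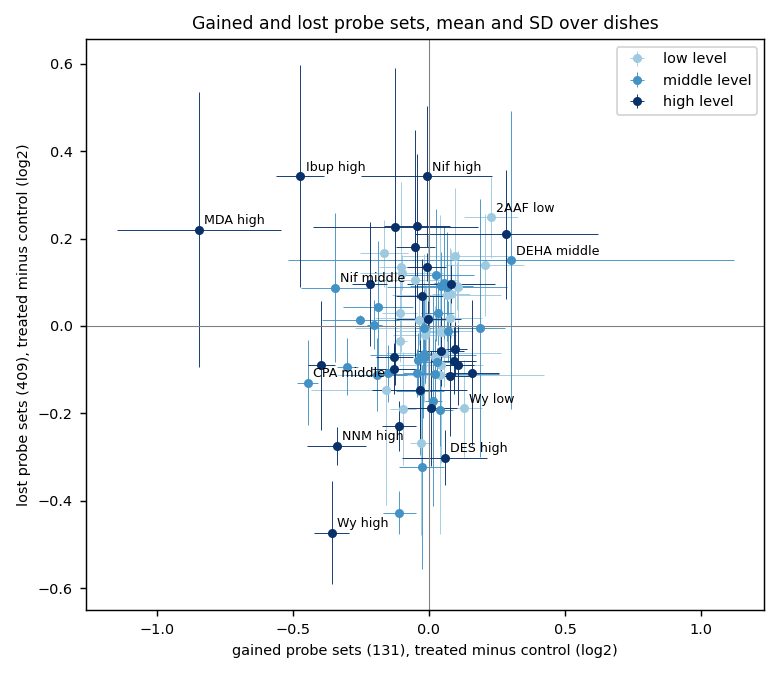
Mean treated minus control difference (log2) of the 131 gained probe sets (x axis) and of the 409 lost probe sets (y axis) for 85 comparisons of compound and level, with SD over dishes as error bars and Aap high left out. Ibuprofen high lies at -0.47 and 0.34, toward T0 on both axes, and Wy high at -0.36 and -0.47.

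Compounds of related structure were set against each other at matched concentrations in 9 tests, 6 among the nitrosamines dimethylnitrosamine (DMN), NNK and NPip at 1000 and 333 µM and 3 between acetamide and methylcarbamate. These are the smallest dialkyl nitrosamine, a nitrosamine with a pyridyl ketone side chain and a ring nitrosamine. In all, 4 member differences were called, with adjusted p over all probe sets, where the share of all probe sets called was 0.029% for DMN minus NNK at the high level, 0.00966% at the middle level and 0.00322% for DMN minus NPip at the high level. For 1371076_at the DMN dishes at the high level had differences of -1.08, -0.82 and -1.03, against 0.57, 0.98 and 1.01 for NNK, a DMN minus NNK difference of -1.83 (SE 0.19, limma adjusted p 6.76e-05, adjusted over the 9 pairs 9.8e-09). Without replicate 3 this difference was -1.72 and missed the threshold (adjusted p 0.0556). At the middle level DMN had -0.71, -1.12 and -1.15 and NNK 1.34, 0.88 and 1.18, a difference of -2.13 (SE 0.19, adjusted p 2.04e-06, over pairs 1.18e-09). Against NPip at the high level, with 0.98, 1.10 and 0.21, it was -1.74 (SE 0.23, adjusted p 0.0292, over pairs 2.82e-06). This call was lost with quantile normalization (-1.45, adjusted p 0.0544), without replicate 2 (-1.65, adjusted p 1) and without replicate 3 (-1.99, adjusted p 0.471). Without the NPip dishes in which 1 array lacked spike-in signal it was -1.57 (adjusted p 0.0282). The member 1370698_at had -0.11, 0.51 and 0.42 with DMN and 1.58, 2.23 and 1.88 with NNK at the high level, a difference of -1.62 (SE 0.23, adjusted p 0.00728, over pairs 4.22e-06). This call was lost with no replicate block (adjusted p 0.183), without replicate 2 (-1.57, adjusted p 0.261) and without replicate 3 (-1.70, adjusted p 0.0556).

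With all dishes, the other member differences between these compounds missed the threshold. One set of them depended on the NPip dishes in which 1 array lacked spike-in signal, replicate 2 of the high and replicate 1 of the low level, which add to the spread shared by its levels. Without these dishes NNK minus NPip at the middle level, whose own dishes were unaltered, had 12 members called higher (all probe sets 3.20%) and 14 lower (all 5.46%), against 0 with them. The median 95% interval half-width per member was 0.38 for DMN and NNK, 0.51 for pairs with NPip and 0.39 for acetamide and methylcarbamate, and differences of those sizes or less lie within it. Acetamide, the amide of acetic acid, and methylcarbamate, the methyl ester of carbamic acid, had 0 members called at any level (0% of all probe sets), with 14, 23 and 18 members at an unadjusted p under 0.05 from low to high, or 10.7%, 17.6% and 13.7%, where 5.21%, 10.2% and 6.48% of all probe sets were.

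No difference of a member between compound classes was called. Class overlapped with array kind. Clonidine, prazosin, ibuprofen, allyl alcohol, DCB and 3-MC, all NC, were on low-median arrays, with control member means of 9.126 to 9.195 at the highest level. The highest control array of the other kind had 9.05. For contrasts with NC, class and array kind thus cannot be told apart in full. At the highest level 0 members were called for GT minus NC, NG minus NC or GT minus NG (limma on 1 value per compound, all probe sets 0%, 0% and 0.00322%), with 4, 6 and 4 members at an unadjusted p under 0.05, or 3.05%, 4.58% and 3.05%, where 2.53%, 4.19% and 1.54% of all probe sets were. Set means overlapped, with a lowest, median and highest of -0.85, -0.01 and 0.28 among GT compounds, -1.31, -0.03 and 0.30 among NG compounds and -0.47, -0.01 and 0.09 among NC compounds. The extremes of GT (MDA and NPip) and NG (Aap and DEHA) rest on dishes with a distant array or a difference in spike-in signal. Without such dishes the values were -0.50, -0.01 and 0.16 among GT, -0.45, -0.12 and 0.09 among NG, and as above among NC compounds. The class test was not run again without them. The NG median of -0.12 is the value of ethionine, where 1 dish mixed both kinds of arrays. The range of member falls was 0 to 91 in GT, 0 to 48 in NG and 0 to 66 in NC, so a non-carcinogen, ibuprofen, was among the compounds with the most members moved back.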

How the data were processed

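The deposited table held log2 expression values, 1 per probe set and array, from 2.00 to 14.6. The submitters' processing notes name RMA (robust multi-array average), with its version, its arrays and the chip annotation not given in the sources used here. No further normalization was applied to the deposited log2 values, and the 57 control probe sets (AFFX) were left out of tests. The number of arrays limits the precision.

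Treated and control arrays of the same compound, level and replicate number were taken as 1 dish, since the design text places both in the same 6-well dish. In the values this pairing was weak. The mean correlation of deviations was 0.044 for equal numbers and -0.020 for other numbers, and in 9 of 84 comparisons every pair exceeded 0.1. Prazosin high treated replicate 3 had no control and was left out, and 3-methylcholanthrene high had 2 dishes. For each compound, limma 3.58.1 in R 4.3.3 (lmFit, eBayes) was fitted to dish differences over 31042 probe sets, with all its levels in 1 fit and Benjamini-Hochberg adjustment. The spread behind an SE is shared by the levels. Set means are means over members per dish and carry no p-value. Related compounds were compared as a difference of effects, classes on 1 value per compound.

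Members and lists were chosen with earlier results of these data known. Named members followed a rule: for the 8 comparisons with the most members called, the largest falls and rises among members changed the same way in every dish, then the members called in the most compounds, those with the largest gain, and those at the threshold. Where a member lower in order of size was named in place of the next (1392579_at), or a member's value in a further comparison was added, that was chosen after its values were seen. At most 2 rises and 2 falls are given per comparison. Gene lists and marker lists were not applied, since probe sets were not paired with genes. The procedure was tested on simulated data, where of changes of 1 and 2 on the log2 scale it recovered 19% and 73% for CPA high (31042 probe sets, 3 dishes) and 32% and 89% for 3-methylcholanthrene high (2 dishes). False calls numbered 10 and 5. The simulated noise had the SD of each probe set over the control arrays of all levels of the compound, which for CPA span both array kinds. The recovery thus holds for that spread and not for the spread of the real dish differences. Alternatives were no replicate block, quantile normalization, trended and robust variances, each replicate left out and distant arrays left out. Others were the array median difference as a term, dishes with both arrays on the same side of a median of 5.4 (a limit set with the data seen), and other choices of members. Added after the data were seen were dishes with differing spike-in signal left out, the 5 set-aside probe sets kept, and high minus middle. Leaving out those dishes was also applied to related compounds and to the set means of classes, but not to the class test. The class test had only no replicate block and quantile normalization as alternatives.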

Additional observations from a re-analysis of the deposited data

Results flagged for a closer look

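The response of 1371076_at differed between nitrosamines by a direct test. The DMN minus NNK difference was -1.83 at the high level and -2.13 at the middle level, with the DMN dishes below 0 and the NNK dishes above 0. The call at the high level was lost without replicate 3 (adjusted p 0.0556, limma), while that at the middle level was kept under every alternative run. The DMN minus NPip difference was -1.74 at the high level, and its call was lost with quantile normalization and without replicate 2 or 3, but kept without the NPip dishes in which 1 array lacked spike-in signal (-1.57, adjusted p 0.0282). For 1370698_at the DMN minus NNK difference was -1.62 at the high level, where NNK dishes were higher, and its call was lost with no replicate block and without replicate 2 or 3.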

How the results depend on the processing

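Percentages here are of members, or of pairs of member and compound, called by limma. Without 1 replicate at a time, falls at the highest level were 8.77% to 10.2% of pairs (14.2% with all dishes) and rises 2.50% to 5.53% (6.63%). Falls were 1.23% to 3.35% (4.88%) and rises 0.845% to 2.51% (2.13%) at the middle level, and 0.237% to 1.08% (1.53%) and 1.45% to 2.13% (2.29%) at the low level. For high minus low, falls were 3.90% to 4.17% (7.82%) and rises 0.464% to 2.24% (2.02%), and the added contrast high minus middle had 4.14% and 0.872%. Leaving out replicate 2 gave the lowest share in each of these ranges. Per comparison the ranges were 23.7% to 77.1% for MDA high (69.5%), 29.8% to 38.2% for ibuprofen high (50.4%), 22.1% to 45.8% for NNM high (50.4%), 22.1% to 39.7% for Wy high (36.6%), 13% to 18.3% for CPA middle (32.8%), 15.3% to 25.2% for MPy high (27.5%), 3.82% to 32.8% for DES high rises (28.2%) and 15.3% to 29.0% for 2AAF low rises (32.8%).

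With the array median difference as a term, falls at the highest level were 9.40% and rises at the low level 1.24%, and the shares were 36.6% for MDA high, 0% for NNM high, 20.6% for Wy high, 13.7% for DES high rises and 0% for 2AAF low rises. Without dishes that differed in spike-in signal, rises at the low level were 1.34%, and MDA high had 11.5% and a set mean of -0.50. Quantile normalization gave 25.2% for NNM high, and set means of -0.14 for NNM high, -0.14 for MPy high, 0.074 for 2AAF low, -0.39 for CPA middle and -0.34 for ibuprofen high. Trended and robust variances gave 2.94% falls at the middle level and 21.4% for CPA middle. Dishes with both arrays on the same side of the 5.4 median limit gave 1.53% for NNM high, from 1 dish. Members with a gain of 1.5 or more gave falls of 8.33% at the middle level, 3.12% at the low level, 28.6% for NNM high, 61.9% for Wy high and 52.4% for CPA middle, and rises of 14.3% for DES high, with set means of -0.29 for DES high, -0.79 for Wy high and -0.94 for CPA middle. There the set means of Wy low (-0.17) and PBO high (-0.13) changed sign. Members with a gain of 1 or more on both sides of that limit gave -0.49 for CPA middle. The related compounds gave 1 to 21 member differences without 1 replicate (4), and 30 without dishes that differed in spike-in signal. With no replicate block the highest level had 14.8% falls and 6.71% rises, NNM high 54.2%, CPA middle 27.5% and 3 related differences, and no share listed here moved by over 1.5 times. Of the alternatives for named members' differences 294 kept direction and call and 22 lost the call. The causes of these changes were not tested.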
